A study of Homo sapiens with 20 samples.

Results

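Panc1 is a human cell line from a pancreatic ductal carcinoma. The question examined here is how its response to TGFβ, measured by RNA-seq, differed after knockdown of the transcription factor KLF10. All 12 Panc1 libraries of the series, of 20 libraries in all, were used. They fall into 4 groups of 3, lettered A, B and C: siRNA against KLF10 with TGFβ (siKLF10+TGFβ), the same siRNA without TGFβ (siKLF10), TGFβ alone by its label (TGFβ, whose label names no siRNA), and control siRNA (siCont). The labels' protocols give the TGFβ dose as 5 ng/ml and the time as 72 h, and they describe the cells as immortalised with SV40 large T antigen. The series, by its title, concerns KLF10 as a negative feedback on the epithelial-to-mesenchymal transition (EMT) induced by TGFβ.

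TGFβ binds paired receptor kinases at the cell surface, which phosphorylate SMAD proteins that enter the nucleus and change transcription. In epithelial tumour cells the response includes loss of junction and keratin genes, induction of EMT transcription factors such as SNAI1 and ZEB1, and secretion of collagens and other matrix. KLF10, first described as a TGFβ-inducible early gene, encodes a zinc-finger protein of the Sp/KLF family, whose members bind GC-rich sites and CACCC elements in promoters.

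In what follows, the TGFβ response after siKLF10 is siKLF10+TGFβ over siKLF10, and the response without siKLF10 is TGFβ over siCont. The interaction is the first minus the second on the log2 scale, so a positive value means that TGFβ moved the gene further up, or less far down, after knockdown. The labels do not say whether the TGFβ libraries had control siRNA. If they had none, its effect cannot be told apart from that of TGFβ in the second response or in the interaction. Levels are CPM, the count of a gene relative to the total gene count of its library after TMM scaling, and log2 values are given with the SE of the fit. Genes were tested with the quasi-likelihood F test of edgeR, p-values were adjusted by the Benjamini-Hochberg method over 13218 tested genes, and a gene was called when its adjusted p was under 0.05.

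The siRNA and TGFβ both moved KLF10 itself. KLF10 had 101, 101 and 104 CPM in siKLF10+TGFβ libraries, 83, 80.8 and 77.5 CPM in siKLF10 libraries, 192, 187 and 206 CPM in TGFβ libraries and 140, 137 and 130 CPM in siCont libraries. No 2 of the 4 groups overlapped, and both siKLF10 groups lay below both others. KLF10 thus stayed inducible by TGFβ after knockdown, by 1.26-fold, against 1.44-fold without siKLF10, with an interaction of -0.18 ± 0.08 that was not called (edgeR adjusted p = 0.237).

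Gene counts ranged from 11152625 to 15571367 per library. Separate cultures are not stated in the labels, so p-values here measure spread between libraries and that spread may be technical. In bulk RNA, fewer cells of a kind and less RNA per cell cannot be told apart. Library siKLF10+TGFβ A stood furthest from its replicates, with a median absolute log2 deviation of 0.137, against 0.0611 to 0.118 in the other 11. The ductal markers KRT8, KRT18 and KRT19 were present in every library. Haematopoietic, endothelial, alveolar and acinar or islet markers were at or near 0, apart from the haematopoietic marker CD14. It had 0.347 to 0.725 CPM in siKLF10+TGFβ libraries, 1.36 to 2.41 CPM in siKLF10 libraries, 0.204 to 0.436 CPM in TGFβ libraries and 0.957 to 1.66 CPM in siCont libraries. Its fall with TGFβ was called both after siKLF10 and without it. The ductal markers KRT7 and EPCAM were highest in siCont libraries on average, KRT7 with 4.87 CPM in siKLF10+TGFβ, 5.58 CPM in siKLF10, 4.85 CPM in TGFβ and 16.1 CPM in siCont libraries. Of 6 fibroblast markers, summed levels were 34 to 38.5 CPM in siKLF10+TGFβ libraries, 14.7 to 15.2 CPM in siKLF10 libraries, 28.2 to 31.9 CPM in TGFβ libraries and 12.3 to 13.8 CPM in siCont libraries, most of it COL3A1, and their part in the results was not tested. The 7 basal or squamous markers summed to 11.9 to 14.4 CPM in siKLF10+TGFβ libraries, 14 to 15.6 CPM in siKLF10 libraries, 13.4 to 21 CPM in TGFβ libraries and 35.7 to 92.9 CPM in siCont libraries. KRT5, a keratin of basal epithelium, had no more than 9.52 CPM in the libraries of the other groups, against 60.7 CPM in siCont A, 21.8 CPM in siCont B and 22.3 CPM in siCont C. CDKN2A, a cell-cycle inhibitor known to be deleted in Panc1 cells and chosen here after its values were seen, had 1, 6 and 1 reads in siKLF10+TGFβ libraries, 1, 0 and 0 in siKLF10 libraries, 3, 0 and 1 in TGFβ libraries and 56, 18 and 39 in siCont libraries. It had the largest interaction estimate of all tested genes (7.27 ± 1.65, edgeR adjusted p = 0.0129; 5.92, adjusted p = 0.214, without siKLF10+TGFβ B), which rests on the few reads outside siCont and is no bound. What part these transcripts have in the interactions was not tested. The siCont group is part of every interaction, so values without siCont A are given for named results whose call it ends.

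The TGFβ response differed with knockdown for 584 of 13218 genes (4.42%). The interaction was higher for 338 genes (2.56%) and lower for 246 genes (1.86%). TGFβ changed 5943 genes (45%) after siKLF10 and 3839 genes (29%) without it. The median absolute log2 response over all tested genes was 0.24 after siKLF10 and 0.17 without it. The median interaction was -0.01, which TMM scaling holds near 0. Of 3049 genes called in both responses, 3012 moved the same way and 37 moved opposite ways. Most interactions were of modest size. The median absolute log2 interaction of the called genes was 0.55, 68 of them reached 2-fold and 343 stayed under 1.5-fold.

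Counts of calls depended on single libraries. Without siKLF10+TGFβ A, 570 genes were higher and 465 lower. Without siKLF10 C the counts were 196 and 164, and without siKLF10+TGFβ B they were 199 and 150. Without TGFβ A they were 217 and 171, without TGFβ B 216 and 159, and without TGFβ C 229 and 157. Without siCont A they were 238 and 166. None of the 584 genes changed sign under any of these alternatives, which their choice in the same libraries largely fixes.

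The called genes were sorted by which of the 2 responses was itself called. The response was stronger in the same direction after knockdown for 250 genes (42.8%), of which 150 rose and 100 fell with TGFβ. It was gained, meaning called after siKLF10 only, for 212 genes (36.3%), of which 116 rose and 96 fell. It was lost, meaning called without siKLF10 only, for 58 genes (9.93%). It was opposite in sign for 37 genes (6.34%), weaker for 25 (4.28%) and called in neither arm for 2 (0.342%). These classes describe calls, and the test of a difference is the interaction itself.

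**Figure D1:**
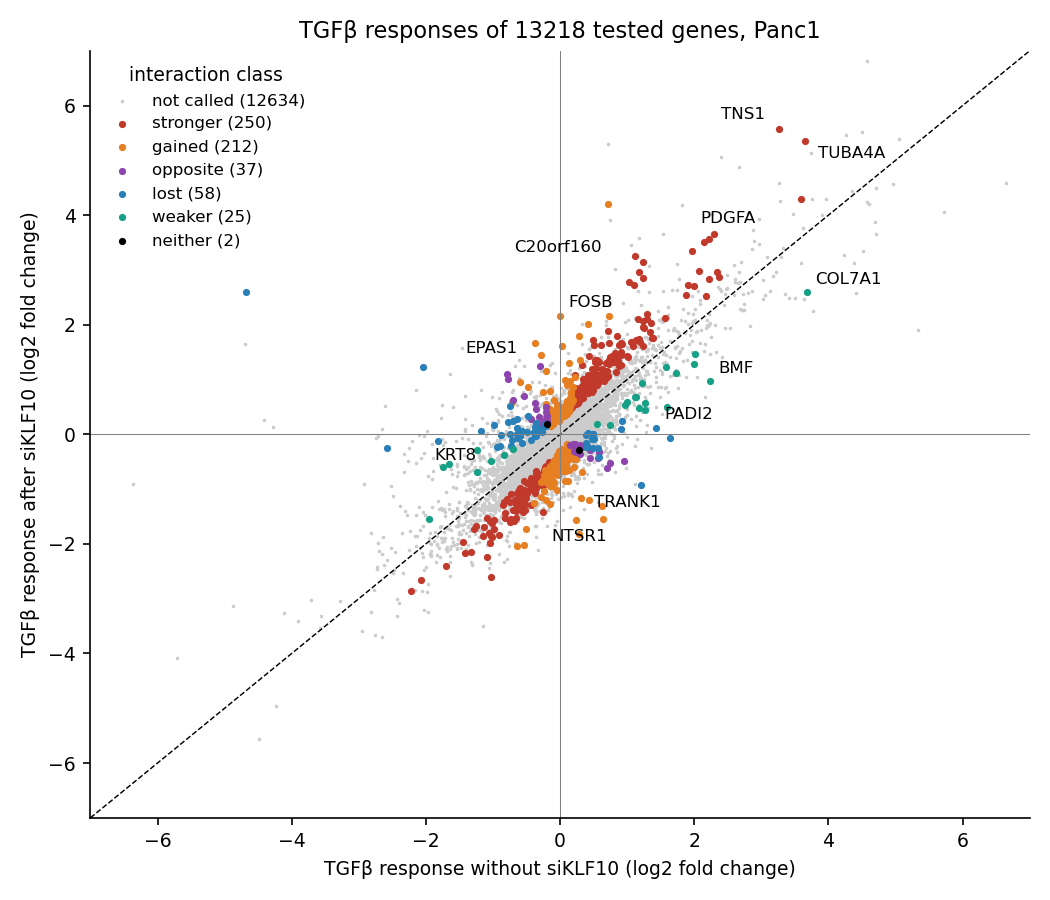
TGFβ response of each tested gene after siKLF10 (vertical axis, log2 fold change) against the response without siKLF10 (horizontal axis), with the 584 called interactions coloured by class. The 250 stronger genes lie along the diagonal but steeper than it, the 212 gained genes spread up and down near a horizontal value of 0, and 1 gene lies outside the axes.

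Among the genes with a stronger rise was TNS1, which encodes tensin 1, a protein that ties actin to integrin adhesions. It had 19.4, 19 and 18.7 CPM in siKLF10+TGFβ libraries, 0.514, 0.151 and 0.53 CPM in siKLF10 libraries, 4.94, 5.12 and 3.54 CPM in TGFβ libraries and 0.368, 0.788 and 0.266 CPM in siCont libraries. Both untreated groups were near the floor of 3 counts, which was 0.198 to 0.26 CPM per library, and the siKLF10+TGFβ libraries stood above all others. Its interaction was 2.30 ± 0.56 (edgeR adjusted p = 0.0176), the largest among called genes averaging at least 5 CPM, and it was 1.77 (adjusted p = 0.172) without siCont B. TUBA4A, an α-tubulin isotype, had 272, 221 and 209 CPM in siKLF10+TGFβ libraries, 5.4, 5.73 and 6.06 CPM in siKLF10 libraries, 88.3, 85.9 and 70.6 CPM in TGFβ libraries and 8.25, 5.44 and 5.72 CPM in siCont libraries. The untreated groups overlapped and the TGFβ-treated groups did not, giving a 40.8-fold response after siKLF10, against 12.6-fold without it (interaction 1.70 ± 0.23, edgeR adjusted p = 0.000455).

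C20orf160 showed the same order of groups. It had 41.8, 38 and 32 CPM in siKLF10+TGFβ libraries, 3.85, 3.62 and 4.24 CPM in siKLF10 libraries, 8.58, 9.19 and 9.18 CPM in TGFβ libraries and 4.2, 4.65 and 3.66 CPM in siCont libraries (interaction 2.14 ± 0.20, edgeR adjusted p = 1.49e-06). PDGFA, which encodes a chain of platelet-derived growth factor, a mitogen for mesenchymal cells, had 177, 173 and 160 CPM in siKLF10+TGFβ libraries, 13.4, 16 and 15.3 CPM in siKLF10 libraries, 67.5, 71.4 and 65.7 CPM in TGFβ libraries and 18.9, 14.6 and 12.7 CPM in siCont libraries. The response was 11.4-fold after siKLF10, against 4.44-fold without it (interaction 1.36 ± 0.14, edgeR adjusted p = 7.04e-06). For C20orf160, PDGFA and TUBA4A alike, the siKLF10 and siCont libraries overlapped, and the groups parted only under TGFβ.

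COL5A2, which encodes a chain of the fibril-forming collagen V, parted on both sides. It had 1160, 1350 and 1330 CPM in siKLF10+TGFβ libraries, 257, 294 and 283 CPM in siKLF10 libraries, 943, 948 and 884 CPM in TGFβ libraries and 380, 371 and 376 CPM in siCont libraries. No 2 groups overlapped: knockdown lowered the untreated level and raised the TGFβ-treated one (interaction 0.90 ± 0.09, edgeR adjusted p = 3.45e-06). NEDD9, an adhesion scaffold induced by TGFβ, also parted on both sides (1.37 ± 0.26, edgeR adjusted p = 0.00672). GFPT2, an enzyme of hexosamine synthesis, did too (1.61 ± 0.23, edgeR adjusted p = 0.000217).

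Stronger falls were led by NTSR1, the receptor for the peptide neurotensin. It had 65.6, 51.5 and 53.6 CPM in siKLF10+TGFβ libraries, 161, 139 and 157 CPM in siKLF10 libraries, 137, 146 and 150 CPM in TGFβ libraries and 170, 168 and 177 CPM in siCont libraries. The siKLF10+TGFβ libraries lay below the other 9, which spanned 137 to 177 CPM (interaction -1.16 ± 0.11, edgeR adjusted p = 1.48e-06). PPL, the desmosomal plakin periplakin, fell by 2.41 on the log2 scale after siKLF10 and fell by 1.69 without it (interaction -0.71 ± 0.08, edgeR adjusted p = 2.72e-05). LRP5, a WNT co-receptor, fell by 1.20 after siKLF10 and fell by 0.64 without it (interaction -0.57 ± 0.10, edgeR adjusted p = 0.00139).

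**Figure D2:**
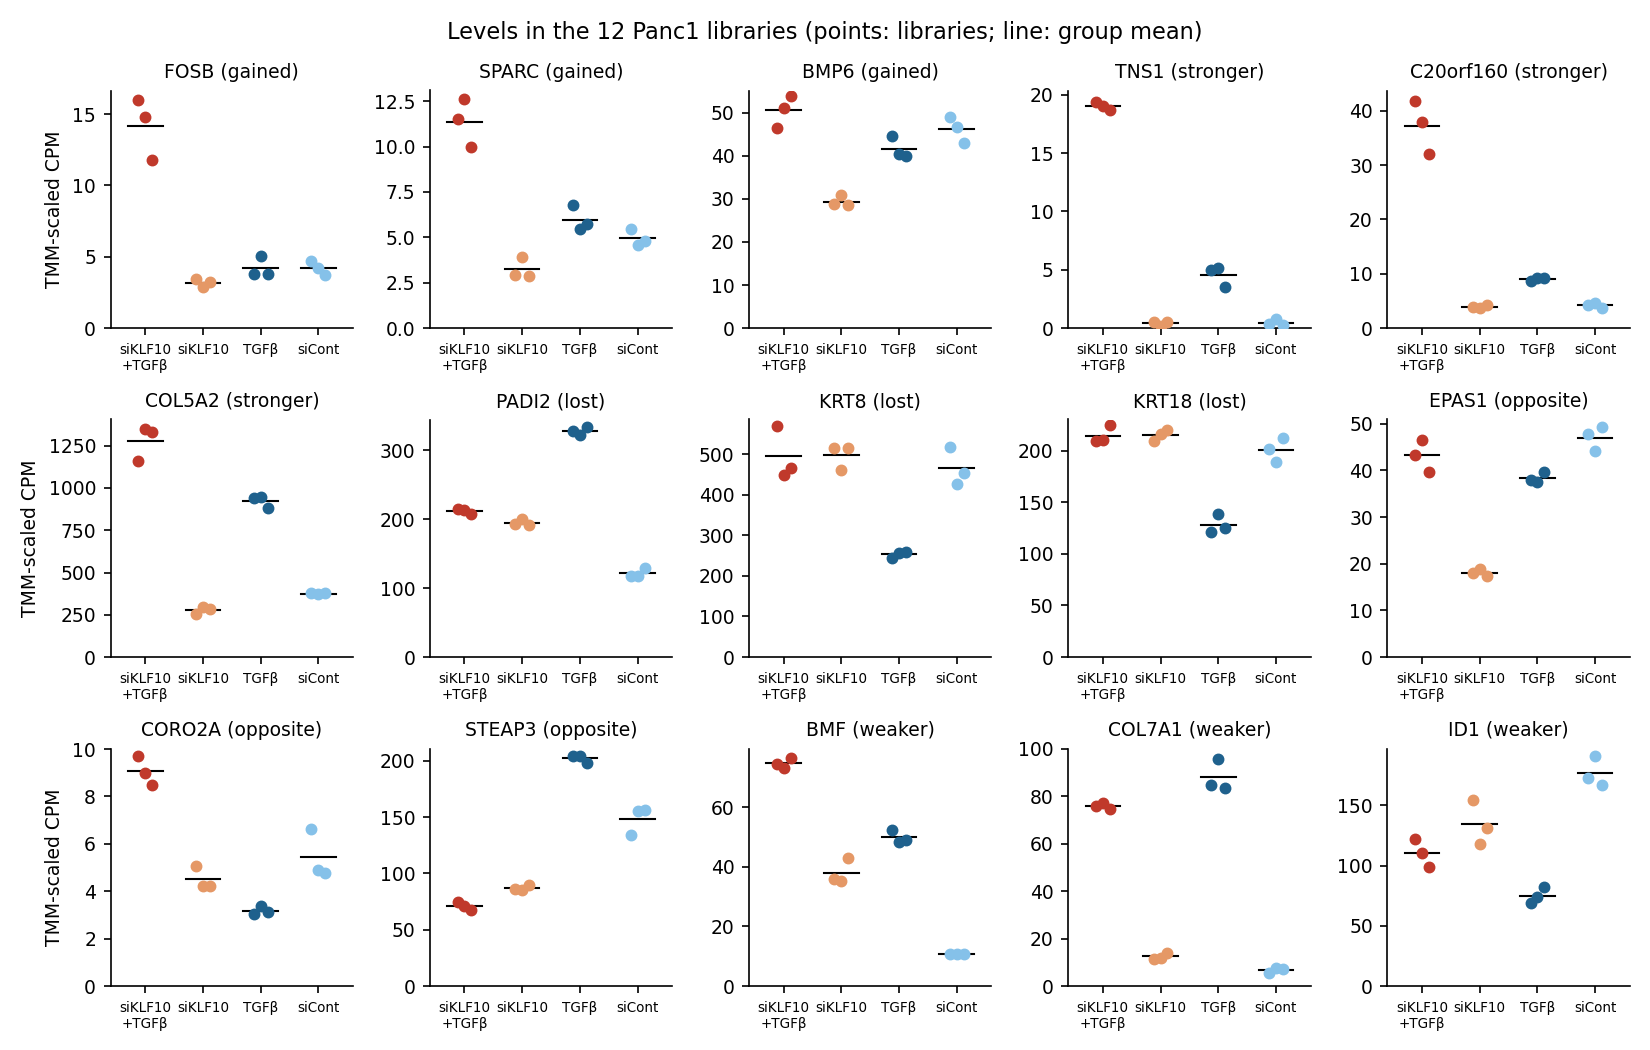
Levels of 15 interaction genes in TMM-scaled CPM (vertical axis, from 0) in the siKLF10+TGFβ, siKLF10, TGFβ and siCont groups, left to right, with 1 point per library and a line at the group mean. FOSB is high in siKLF10+TGFβ libraries alone, KRT8 and KRT18 are low in TGFβ libraries alone, and EPAS1 is low in siKLF10 libraries alone.

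Responses gained after knockdown took 2 shapes. FOSB, a subunit of the AP-1 transcription factor, rose under the combination. It had 16, 14.8 and 11.8 CPM in siKLF10+TGFβ libraries, 3.43, 2.87 and 3.26 CPM in siKLF10 libraries, 3.78, 5.04 and 3.81 CPM in TGFβ libraries and 4.71, 4.18 and 3.73 CPM in siCont libraries. The lowest siKLF10+TGFβ library was above the highest of the other 9, and the TGFβ and siCont groups overlapped (interaction 2.17 ± 0.24, edgeR adjusted p = 1.23e-05). SERPINE2, an inhibitor of thrombin and plasminogen activators, had 24.6, 28.8 and 27.4 CPM in siKLF10+TGFβ libraries, 8.99, 8.98 and 8.49 CPM in siKLF10 libraries, 10.9, 10.2 and 13.3 CPM in TGFβ libraries and 16.9, 7.88 and 9.18 CPM in siCont libraries. It too was high in siKLF10+TGFβ libraries alone, and siCont A was the highest of the rest (interaction 1.59 ± 0.31, edgeR adjusted p = 0.0113).

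In the second shape, the siKLF10 libraries stood apart from the other 9. BMP6, a ligand of the BMP branch of the TGFβ family, had 46.5, 51.2 and 53.9 CPM in siKLF10+TGFβ libraries, 28.7, 30.8 and 28.6 CPM in siKLF10 libraries, 44.7, 40.4 and 39.9 CPM in TGFβ libraries and 49.1, 46.8 and 43 CPM in siCont libraries. The siKLF10 libraries lay below the other 9 (interaction 0.93 ± 0.11, edgeR adjusted p = 3.81e-05). PLEKHG4B, a guanine-nucleotide exchange factor, was highest in siKLF10 libraries. It had 14, 15.1 and 15 CPM in siKLF10+TGFβ libraries, 35.6, 29.8 and 36 CPM in siKLF10 libraries, 19.9, 19 and 20.7 CPM in TGFβ libraries and 21.3, 24.7 and 23.4 CPM in siCont libraries, so that the siKLF10+TGFβ libraries were the lowest (interaction -0.99 ± 0.13, edgeR adjusted p = 0.000129). TRANK1 had the lowest interaction among called genes averaging at least 5 CPM, at -1.48 ± 0.22 (edgeR adjusted p = 0.00034). It had 11.6 to 15.5 CPM in siKLF10 libraries and 4.81 to 7.42 CPM in the other 9.

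SPARC, a collagen-binding matricellular protein, moved in both ways at once. It had 11.5, 12.6 and 9.98 CPM in siKLF10+TGFβ libraries, 2.91, 3.92 and 2.88 CPM in siKLF10 libraries, 6.76, 5.44 and 5.71 CPM in TGFβ libraries and 5.45, 4.57 and 4.79 CPM in siCont libraries. The siKLF10+TGFβ libraries were above and the siKLF10 libraries below all others, while TGFβ and siCont overlapped (interaction 1.53 ± 0.23, edgeR adjusted p = 0.000286).

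The lost responses included the most certain interaction by p, that of PADI2. This gene encodes an enzyme that converts arginine to citrulline in proteins. It had 215, 213 and 207 CPM in siKLF10+TGFβ libraries, 193, 200 and 192 CPM in siKLF10 libraries, 328, 323 and 334 CPM in TGFβ libraries and 117, 118 and 130 CPM in siCont libraries. No 2 groups overlapped: TGFβ alone gave the highest level, siCont the lowest, and both siKLF10 groups lay between. The response was 1.09-fold after siKLF10, which was not called (edgeR adjusted p = 0.0863), against 2.70-fold without it (interaction -1.31 ± 0.08, edgeR adjusted p = 1.01e-09).

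The paired simple-epithelial keratins KRT8 and KRT18, which assemble together into filaments and mark ductal cells, lost their fall. KRT8 had 569, 448 and 466 CPM in siKLF10+TGFβ libraries, 516, 461 and 515 CPM in siKLF10 libraries, 245, 256 and 259 CPM in TGFβ libraries and 517, 426 and 454 CPM in siCont libraries. KRT18 had 209, 210 and 225 CPM in siKLF10+TGFβ libraries, 209, 216 and 220 CPM in siKLF10 libraries, 121, 139 and 125 CPM in TGFβ libraries and 202, 189 and 212 CPM in siCont libraries. For both genes the TGFβ libraries lay below the other 9, and the other 3 groups overlapped. The interactions were 0.87 ± 0.12 for KRT8 and 0.64 ± 0.09 for KRT18 (edgeR adjusted p = 0.000138 for each). RHPN2 was also lowest in TGFβ libraries (0.58 ± 0.08, edgeR adjusted p = 0.000171), but its siCont libraries, at 153 to 156 CPM, were above all others. KRT19, the third keratin of the ductal markers, had 36.1 to 47.8 CPM in siKLF10+TGFβ libraries, 185 to 194 CPM in siKLF10 libraries, 57.3 to 59.6 CPM in TGFβ libraries and 214 to 236 CPM in siCont libraries, and its interaction of -0.26 ± 0.11 was not called (edgeR adjusted p = 0.189).

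Of the 58 lost genes, 41 had a positive interaction, all of them falling with TGFβ without siKLF10. For 21 of these 41, every siCont library was above the other 9 libraries, and for 1 by over 1.5 times. The choice of the class partly fixes this. The same held for 80 of all 584 interaction genes, 4 of them by over 1.5 times. Among all 13218 tested genes it held for 967, 58 of them by over 1.5 times. The basal markers named above were likewise highest in siCont libraries. The part of that profile in these calls was not tested. Without siCont A, 36 genes were in the lost class, and KRT8, KRT18 and RHPN2 were called under every alternative tried, that one included. Every alternative kept siCont libraries, and KRT5 was high in each of them (21.8 to 60.7 CPM). These calls therefore cannot decide the part of that profile.

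Of the opposite responses, the smallest p was that of EPAS1, which encodes the hypoxia-inducible factor subunit HIF-2α. It had 43.3, 46.6 and 39.7 CPM in siKLF10+TGFβ libraries, 18, 18.9 and 17.4 CPM in siKLF10 libraries, 37.9, 37.4 and 39.7 CPM in TGFβ libraries and 47.7, 44.1 and 49.3 CPM in siCont libraries. The siKLF10 libraries were far below the other 9. The log2 response was 1.25 ± 0.08 after siKLF10 and -0.30 ± 0.08 without it (interaction 1.55 ± 0.11, edgeR adjusted p = 2.62e-08). CORO2A, an actin-binding coronin, had 9.69, 8.97 and 8.5 CPM in siKLF10+TGFβ libraries, 5.05, 4.22 and 4.24 CPM in siKLF10 libraries, 3.05, 3.36 and 3.13 CPM in TGFβ libraries and 6.63, 4.88 and 4.79 CPM in siCont libraries. Here the siKLF10+TGFβ libraries were highest and the TGFβ libraries lowest (interaction 1.79 ± 0.23, edgeR adjusted p = 5.98e-05).

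STEAP3, an iron reductase of endosomes, went the other way. It had 74.5, 71.2 and 67.7 CPM in siKLF10+TGFβ libraries, 86.4, 84.9 and 89.3 CPM in siKLF10 libraries, 204, 204 and 198 CPM in TGFβ libraries and 134, 155 and 156 CPM in siCont libraries. No 2 groups overlapped, and TGFβ lowered it after siKLF10 and raised it without (interaction -0.73 ± 0.09, edgeR adjusted p = 5.34e-05). PTPRU, a receptor tyrosine phosphatase, and CREB5, a bZIP transcription factor, also fell after siKLF10 and rose without it, with interactions of -1.26 ± 0.19 and -0.99 ± 0.16 (edgeR adjusted p = 0.000308 and 0.000616).

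The weaker responses included the apoptosis gene BMF, a BH3-only protein that TGFβ is known to induce. It had 74.5, 73.3 and 76.4 CPM in siKLF10+TGFβ libraries, 35.9, 35.4 and 42.9 CPM in siKLF10 libraries, 52.2, 48.4 and 49.1 CPM in TGFβ libraries and 10.6, 10.7 and 10.6 CPM in siCont libraries. No 2 groups overlapped. Its final level was highest in siKLF10+TGFβ libraries, yet the rise was smaller, 1.96-fold after siKLF10, against 4.69-fold without it (interaction -1.26 ± 0.12, edgeR adjusted p = 1.48e-06). CDH6, known as kidney cadherin, also had its highest mean in siKLF10+TGFβ libraries, although they overlapped with TGFβ libraries. It had a 1.41-fold response after siKLF10 and 3.01-fold without it (interaction -1.09 ± 0.15, edgeR adjusted p = 0.000102).

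COL7A1, which encodes the anchoring-fibril collagen VII, had 75.9, 77.1 and 74.7 CPM in siKLF10+TGFβ libraries, 11.6, 12 and 13.9 CPM in siKLF10 libraries, 84.8, 95.5 and 83.5 CPM in TGFβ libraries and 5.45, 7.8 and 7.39 CPM in siCont libraries. Knockdown raised the untreated level and lowered the treated one (interaction -1.08 ± 0.15, edgeR adjusted p = 0.000138). ID1, an inhibitor of bHLH factors, had 122, 110 and 98.7 CPM in siKLF10+TGFβ libraries, 154, 118 and 131 CPM in siKLF10 libraries, 68.9, 74.3 and 82.2 CPM in TGFβ libraries and 173, 191 and 167 CPM in siCont libraries. Its fall with TGFβ was smaller after knockdown (interaction 0.95 ± 0.13, edgeR adjusted p = 0.000323).

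The promoters of FOSB (gained), EPAS1 (opposite) and PADI2 (lost) are shown because each is the gene of smallest p in its class that averages at least 5 CPM and has 1 listed start. They are RefSeq sequences of build GRCh38.p14, on the strand of the gene, from 250 bases before to 50 bases from the start. Capitals mark the GC box GGGCGG or its complement CCGCCC and the CACCC element or its complement GGGTG, runs of which overlap in places. FOSB lies at chr19:45467746-45468045 on the plus strand, EPAS1 at chr2:46297157-46297456 on the plus strand and PADI2 at chr1:17119402-17119701 on the minus strand.
FOSB: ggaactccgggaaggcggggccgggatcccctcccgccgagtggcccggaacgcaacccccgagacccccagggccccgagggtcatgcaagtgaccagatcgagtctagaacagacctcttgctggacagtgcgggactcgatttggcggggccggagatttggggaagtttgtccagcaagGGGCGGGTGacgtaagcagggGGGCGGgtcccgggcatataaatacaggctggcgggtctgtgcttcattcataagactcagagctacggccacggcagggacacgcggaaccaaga
EPAS1: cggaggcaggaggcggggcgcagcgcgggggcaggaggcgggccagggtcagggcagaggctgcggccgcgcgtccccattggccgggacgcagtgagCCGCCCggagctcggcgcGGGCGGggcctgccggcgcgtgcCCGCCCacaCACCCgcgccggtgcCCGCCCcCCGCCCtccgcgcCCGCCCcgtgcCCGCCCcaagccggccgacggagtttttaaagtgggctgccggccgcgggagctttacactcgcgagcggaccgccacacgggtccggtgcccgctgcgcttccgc
PADI2: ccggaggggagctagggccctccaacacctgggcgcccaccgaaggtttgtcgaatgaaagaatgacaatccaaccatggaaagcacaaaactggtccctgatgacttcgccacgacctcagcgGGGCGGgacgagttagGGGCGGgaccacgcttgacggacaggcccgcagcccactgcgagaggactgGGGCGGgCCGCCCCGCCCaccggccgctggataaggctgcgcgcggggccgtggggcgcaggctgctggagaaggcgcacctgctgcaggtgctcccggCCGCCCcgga
The FOSB window holds 2 GC boxes and 1 CACCC element, the EPAS1 window 7 and 1, and the PADI2 window 6 and 0. Of 35116 promoter windows of the same length in the table, 45% hold at least 1 GC box and 59.9% at least 1 CACCC element on either strand. A match describes letters in a window and does not show a bound site.

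The same interaction can be read as a knockdown effect that depends on TGFβ. siKLF10 changed 5513 genes (41.7%) under TGFβ and 4700 genes (35.6%) without it. Among the 338 genes with a higher interaction, the knockdown effect was called under TGFβ alone for 135, without TGFβ alone for 91, in both with the same sign for 58, in both with opposite signs for 51 and in neither for 3. Among the 246 with a lower one, the counts were 112, 49, 61, 23 and 1. TNS1, TUBA4A, C20orf160, PDGFA, FOSB, KRT8, KRT18 and NTSR1 belong to the first kind. EPAS1, TRANK1, F2RL1, a protease-activated receptor, and ZEB1 belong to the second, in which the untreated cells differed and the treated cells did not pass the test. SPARC, BMP6, COL5A2, COL7A1 and PADI2 changed in opposite directions.

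Genes of the TGFβ pathway were examined by a list of its targets and feedback genes. Of 36 tested, 9 were higher and 1 was lower (27.8% in either direction, against 4.42% of all tested genes), and the median interaction was 0.18, against -0.01 over all tested genes. IGFBP3, a binding protein for insulin-like growth factors, had 141, 133 and 127 CPM in siKLF10+TGFβ libraries, 18, 16.4 and 16.5 CPM in siKLF10 libraries, 66.4, 66.5 and 69.9 CPM in TGFβ libraries and 18.5, 15.8 and 14.2 CPM in siCont libraries. Its treated groups did not overlap and its untreated groups did (interaction 0.92 ± 0.12, edgeR adjusted p = 9.6e-05). CTGF, a matricellular protein, had 1210 to 1310 CPM in siKLF10+TGFβ libraries, 199 to 223 CPM in siKLF10 libraries, 707 to 764 CPM in TGFβ libraries and 177 to 231 CPM in siCont libraries (interaction 0.66 ± 0.11, edgeR adjusted p = 0.00084). LTBP2, which encodes a latent-TGFβ-binding protein, also passed the test (0.57 ± 0.09, edgeR adjusted p = 0.000336), as did ID1 above.

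Matrix genes were examined in 2 lists. Of 43 matrix glycoproteins and modifiers tested, 8 were higher and 1 was lower (20.9%, against 4.42% of all tested genes), with a median of 0.21. THBS1, thrombospondin 1, an activator of latent TGFβ, had 328, 379 and 366 CPM in siKLF10+TGFβ libraries, 119, 147 and 132 CPM in siKLF10 libraries, 126, 132 and 112 CPM in TGFβ libraries and 97.4, 81 and 94.5 CPM in siCont libraries. The siKLF10+TGFβ libraries were far above the other 9 (interaction 1.00 ± 0.12, edgeR adjusted p = 4.97e-05). ADAM19, a metalloprotease, and CYR61, a matricellular protein, had interactions of 0.70 ± 0.10 and 0.56 ± 0.08 (edgeR adjusted p = 0.000145 for each). LOX, which cross-links collagen, had 0.81 ± 0.13 (edgeR adjusted p = 0.00084).

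Of 22 collagens tested, 3 were higher and 1 was lower (18.2%, against 4.42%), with a median of 0.18. COL4A1, a basement-membrane collagen, had 4.81, 5.47 and 4.77 CPM in siKLF10+TGFβ libraries, 0.257, 0.151 and 0.379 CPM in siKLF10 libraries, 2.76, 2.4 and 2.04 CPM in TGFβ libraries and 2.28, 1.34 and 0.799 CPM in siCont libraries. The siKLF10 libraries held 3, 2 and 5 reads of it, so its estimate of 3.49 ± 0.52 (edgeR adjusted p = 0.000279) rests on few counts. COL11A1, a fibrillar collagen, had 0.41 ± 0.09 (edgeR adjusted p = 0.0115), and 0.37 (adjusted p = 0.0558) without siKLF10+TGFβ B. COL5A2 and COL7A1 complete the called collagens.

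**Figure D3:**
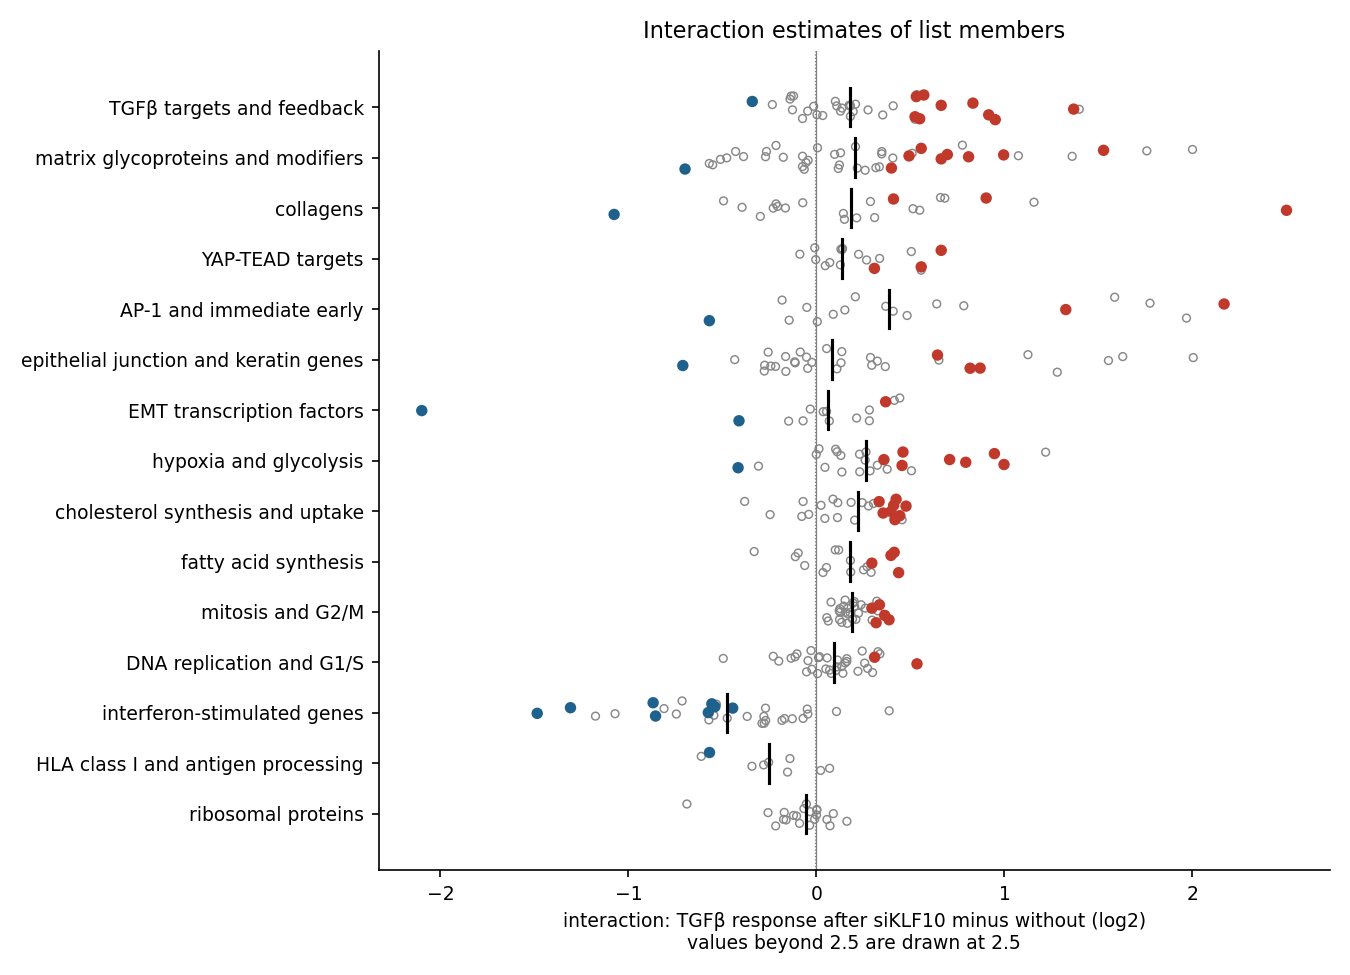
Interaction estimates (horizontal axis, log2) of the tested members of 15 gene lists, with called members filled (red higher, blue lower), others open, and the list median as a bar. The members of the interferon list lie mostly below 0 with a median of -0.47, all 31 mitosis and G2/M members lie above 0, and the ribosomal proteins centre near 0 with no call.

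Of 31 interferon-stimulated genes tested, 8 (25.8%) were lower, against 1.86% of all tested genes, none was higher by the edgeR test, and 2 had a positive estimate. The median was -0.47, with a median log2 response of -0.83 after siKLF10 and -0.43 without it. Under TGFβ, siKLF10 raised 5 and lowered 3 of the 31, and without TGFβ it raised 21 and lowered 2. Of all tested genes, siKLF10 changed 41.7% under TGFβ and 35.6% without it, in either direction. IFIT1, an RNA-binding antiviral protein, had 10.9, 11.4 and 10.5 CPM in siKLF10+TGFβ libraries, 33.2, 31.2 and 30.6 CPM in siKLF10 libraries, 7.78, 7.51 and 6.87 CPM in TGFβ libraries and 11.6, 11.7 and 11.8 CPM in siCont libraries. The siKLF10 libraries were far above the rest (interaction -0.87 ± 0.14, edgeR adjusted p = 0.000783). PARP9, an ADP-ribosyltransferase of the interferon response, had 37.6 to 40.7 CPM in siKLF10+TGFβ libraries, 74.4 to 80.3 CPM in siKLF10 libraries, 34.5 to 37.1 CPM in TGFβ libraries and 46.2 to 51.6 CPM in siCont libraries (interaction -0.54 ± 0.10, edgeR adjusted p = 0.00239).

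The other named interferon genes differed in shape. OAS3, an oligoadenylate synthetase, overlapped between the untreated groups, at 94.3 to 99.1 CPM in siKLF10 libraries and 94 to 99.6 CPM in siCont libraries. It had 53 to 57.6 CPM in siKLF10+TGFβ libraries, below 76.2 to 86.7 CPM in TGFβ libraries (interaction -0.56 ± 0.09, edgeR adjusted p = 0.00084). SAMD9L, an antiviral growth inhibitor, responded in opposite directions, with 6.28 to 9.72 CPM in siKLF10+TGFβ libraries, 10.8 to 13.7 CPM in siKLF10 libraries, 5.99 to 7.42 CPM in TGFβ libraries and 3.66 to 4.93 CPM in siCont libraries (interaction -1.31 ± 0.23, edgeR adjusted p = 0.00168). Among 9 genes of HLA class I and antigen processing, ERAP2, a peptide-trimming aminopeptidase, was lower (-0.57 ± 0.12, edgeR adjusted p = 0.00647) and none was higher. That share of 11.1%, against 4.42% of all tested genes in either direction, rests on 1 gene.

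Of 24 tested genes of cholesterol synthesis and uptake, 8 (33.3%, against 2.56% of all tested genes) were higher and none lower by the edgeR test. The estimates ran from -0.38 to 0.48 with a median of 0.22, and 19 were positive. siKLF10 lowered 17 of the 24 under TGFβ and 21 without it, and raised none, against 41.7% and 35.6% of all tested genes changed in either direction. TGFβ raised 9 and lowered 5 after siKLF10, and raised 1 and lowered 9 without it. The shares of all tested genes changed by TGFβ in either direction were 45% and 29%. HMGCS1, the synthase upstream of the statin target, was low in siKLF10 libraries, at 139 to 169 CPM in siKLF10+TGFβ libraries, 112 to 132 CPM in siKLF10 libraries, 139 to 145 CPM in TGFβ libraries and 143 to 162 CPM in siCont libraries. Its interaction was 0.48 ± 0.11 (edgeR adjusted p = 0.011), and 0.44 (adjusted p = 0.0545) without siKLF10 C and 0.42 (adjusted p = 0.0513) without siKLF10+TGFβ B. The count of 8 was 2 without siKLF10 C and 2 without siKLF10+TGFβ B, 4 without TGFβ B, 5 without TGFβ A or siCont A, and 11 by DESeq2.

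Of 17 fatty acid synthesis genes, 4 (23.5%, against 2.56%) were higher and none lower by the edgeR test, and 13 estimates were positive. The lowest called estimate was that of ACLY (0.295, edgeR adjusted p = 0.0297). ACLY lost its call in 10 of 18 alternatives, with 0.289 (edgeR adjusted p = 0.0636) without siCont A. SCD, the desaturase that makes oleate, had 2280 to 2390 CPM in siKLF10+TGFβ libraries, 1940 to 2060 CPM in siKLF10 libraries, 3120 to 3150 CPM in TGFβ libraries and 3540 to 3760 CPM in siCont libraries. TGFβ raised it after siKLF10 and lowered it without (interaction 0.44 ± 0.08, edgeR adjusted p = 0.00139).

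Of 25 hypoxia and glycolysis genes, 7 were higher and 1 was lower (32% in either direction, against 4.42% of all tested genes), with a median of 0.26. HK2, the inducible hexokinase, had 39.3, 42.6 and 42.7 CPM in siKLF10+TGFβ libraries, 24.2, 29.9 and 29.2 CPM in siKLF10 libraries, 14.9, 16.3 and 14.9 CPM in TGFβ libraries and 15.9, 23.4 and 20.3 CPM in siCont libraries. TGFβ raised it after siKLF10 and lowered it without (interaction 0.95 ± 0.16, edgeR adjusted p = 0.000951). PFKFB3 and PFKFB4, which set the level of the glycolytic activator fructose-2,6-bisphosphate, had 0.79 ± 0.15 and 0.71 ± 0.15 (edgeR adjusted p = 0.00244 and 0.00635). For PFKFB3 the siKLF10 libraries were lowest, with 19.4 to 25.3 CPM in siKLF10+TGFβ libraries, 8.64 to 9.58 CPM in siKLF10 libraries, 30.8 to 33.3 CPM in TGFβ libraries and 20.3 to 24.1 CPM in siCont libraries. The count of 7 higher genes was 4 without TGFβ B and 11 without siKLF10+TGFβ A.

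**Figure D4:**
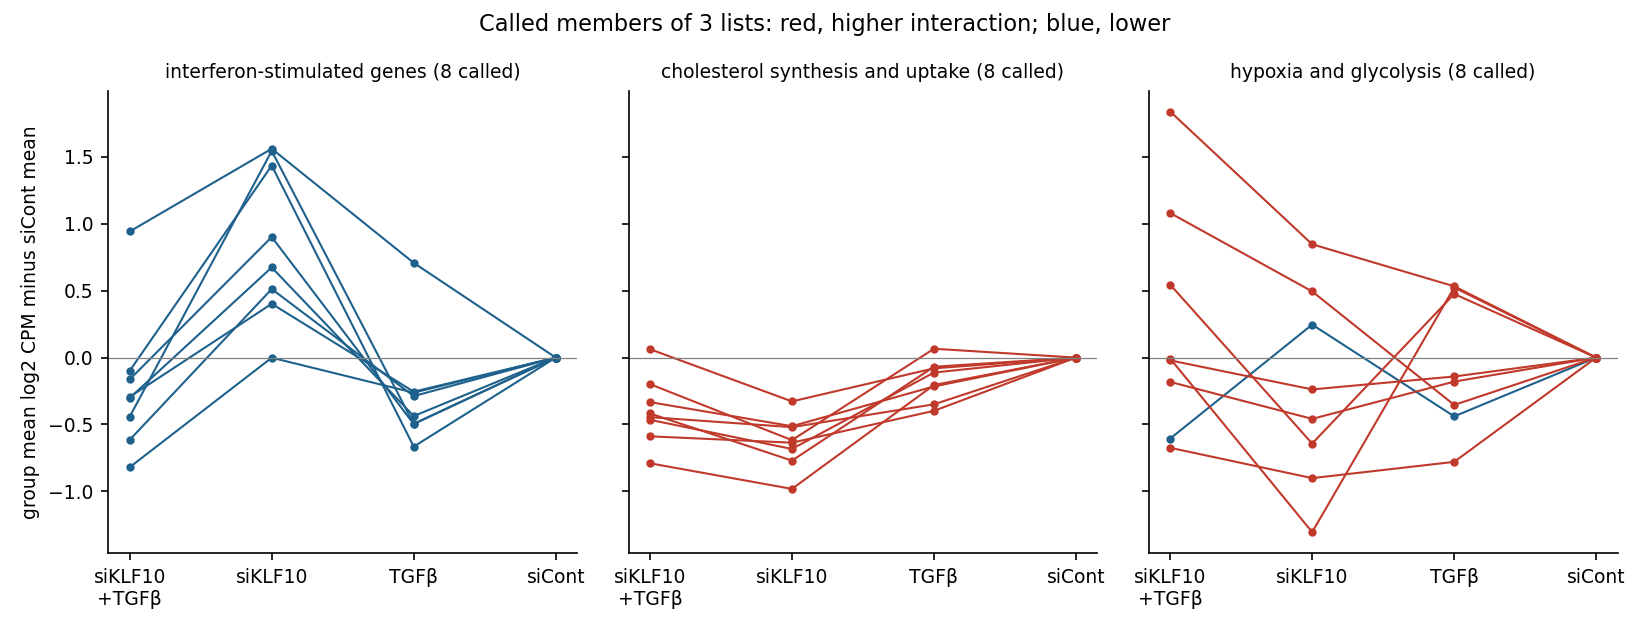
Group means of log2 CPM minus the siCont mean (vertical axis) for the 8 called members of each of 3 lists, in the siKLF10+TGFβ, siKLF10, TGFβ and siCont groups from left to right. All called interferon genes but OAS3 peak in siKLF10 libraries, and the cholesterol genes are lowest there or level with siKLF10+TGFβ, whereas the hypoxia and glycolysis genes have no common shape.

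Cell-cycle genes were examined in 2 lists. All 31 mitosis and G2/M genes had a positive estimate, from 0.06 to 0.39 with a median of 0.19, against 6444 positive estimates among 13218 tested genes. The 5 that passed the test (16.1%, against 4.42% of all tested genes) were all higher. AURKA, a mitotic kinase, had 208, 201 and 198 CPM in siKLF10+TGFβ libraries, 167, 161 and 166 CPM in siKLF10 libraries, 194, 194 and 203 CPM in TGFβ libraries and 219, 216 and 192 CPM in siCont libraries, so that the siKLF10 libraries alone were low (interaction 0.39 ± 0.08, edgeR adjusted p = 0.00854). TGFβ raised 24 of the 31 after siKLF10 and 7 without it, and lowered 0 in either. Of all tested genes, TGFβ changed 45% after siKLF10 and 29% without it, in either direction. The count of 5 was 1 without siKLF10+TGFβ B or siKLF10 C, 2 without siKLF10+TGFβ C, TGFβ A, TGFβ B, siCont A or siCont B, 3 without siKLF10 A or TGFβ C, and 10 without siKLF10+TGFβ A. CCND3, a G1 cyclin, and RRM2, a subunit of ribonucleotide reductase, were the 2 higher of 34 DNA replication and G1/S genes, none of which was lower. That share of 5.88% was near the 4.42% of all tested genes. CCND3 lost its call in 6 of 18 alternatives and RRM2 in 8 of 18, with RRM2 at 0.27 (edgeR adjusted p = 0.0946) without siCont A.

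AP-1 and signalling genes were mixed. Of 18 AP-1 and immediate early genes, 2 were higher and 1 was lower (16.7% in either direction, against 4.42% of all tested genes), with a median of 0.39. JUN, the partner of FOS proteins, had 148, 161 and 154 CPM in siKLF10+TGFβ libraries, 142, 130 and 139 CPM in siKLF10 libraries, 149, 163 and 153 CPM in TGFβ libraries and 87.2, 97.6 and 92.9 CPM in siCont libraries. Only siCont was low, so the rise was smaller after knockdown (interaction -0.57 ± 0.09, edgeR adjusted p = 0.000456). HBEGF, a ligand of the EGF receptor, rose after siKLF10 and fell without it (1.24 ± 0.24, edgeR adjusted p = 0.00291). JAG1, a Notch ligand, had 313, 314 and 301 CPM in siKLF10+TGFβ libraries, 44.6, 48.5 and 47.9 CPM in siKLF10 libraries, 153, 138 and 155 CPM in TGFβ libraries and 43.2, 39.3 and 36.7 CPM in siCont libraries (interaction 0.81 ± 0.10, edgeR adjusted p = 2.72e-05). MCL1, an anti-apoptotic BCL2 relative, also rose more (0.52 ± 0.08, edgeR adjusted p = 0.000415). Of 21 ribosomal protein genes and 7 glucose-sensing arrestins, none was called by edgeR for the interaction. At the 4.42% of all tested genes, lists of these sizes would hold few calls or none.

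Of 10 EMT and feedback genes described whatever their call, 1 had a called interaction, against 4.42% of all tested genes. SNAI1, a repressor of E-cadherin, had 94.3, 72.4 and 71.3 CPM in siKLF10+TGFβ libraries, 10.7, 6.56 and 9.85 CPM in siKLF10 libraries, 44.7, 46.5 and 49.7 CPM in TGFβ libraries and 7.29, 7.48 and 6.92 CPM in siCont libraries. Its treated groups did not overlap, but the difference in response of 0.44 ± 0.20 was not called (edgeR adjusted p = 0.248). SNAI2, its relative, had 36.6, 35.9 and 39.9 CPM in siKLF10+TGFβ libraries, 7.37, 8.9 and 10 CPM in siKLF10 libraries, 26.7, 20.6 and 25.3 CPM in TGFβ libraries and 8.03, 5.99 and 6.72 CPM in siCont libraries (interaction 0.28 ± 0.18, edgeR adjusted p = 0.438). CDH1, which encodes E-cadherin, had 1.98, 2.69 and 1.56 CPM in siKLF10+TGFβ libraries, 10.7, 13.2 and 10.7 CPM in siKLF10 libraries, 4.43, 3.36 and 3.13 CPM in TGFβ libraries and 18.7, 13.6 and 12.5 CPM in siCont libraries (interaction -0.43 ± 0.29, edgeR adjusted p = 0.464). An interaction that misses the threshold does not show equal responses, and at these errors differences of the size fitted for SNAI1 and CDH1 were not detectable.

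ZEB1, a further E-cadherin repressor, was the called member of this fixed set. It had 141, 148 and 154 CPM in siKLF10+TGFβ libraries, 74.5, 81.3 and 81.5 CPM in siKLF10 libraries, 158, 152 and 155 CPM in TGFβ libraries and 112, 104 and 105 CPM in siCont libraries. The siKLF10 libraries were lowest and the treated groups overlapped, so the larger fold came with a similar final level (interaction 0.37 ± 0.09, edgeR adjusted p = 0.0146). It was 0.33 (adjusted p = 0.051) without siCont A and 0.35 (adjusted p = 0.0544) without TGFβ B. VIM, the mesenchymal filament vimentin, had 7120, 6380 and 6060 CPM in siKLF10+TGFβ libraries, 3810, 3520 and 3690 CPM in siKLF10 libraries, 13000, 12100 and 13500 CPM in TGFβ libraries and 9520, 9640 and 8310 CPM in siCont libraries. Both siKLF10 groups lay below both others, and its interaction of 0.34 ± 0.10 (edgeR adjusted p = 0.0588) was called in 4 of 18 alternatives, DESeq2 included (adjusted p = 0.0218). The interactions of CDH2 (N-cadherin), FN1 (fibronectin), SMAD7 (an inhibitory SMAD) and ZEB2 were 0.11 ± 0.09, 0.12 ± 0.15, 0.10 ± 0.15 and -0.07 ± 0.11, with edgeR adjusted p between 0.584 and 0.793.

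**Figure D5:**
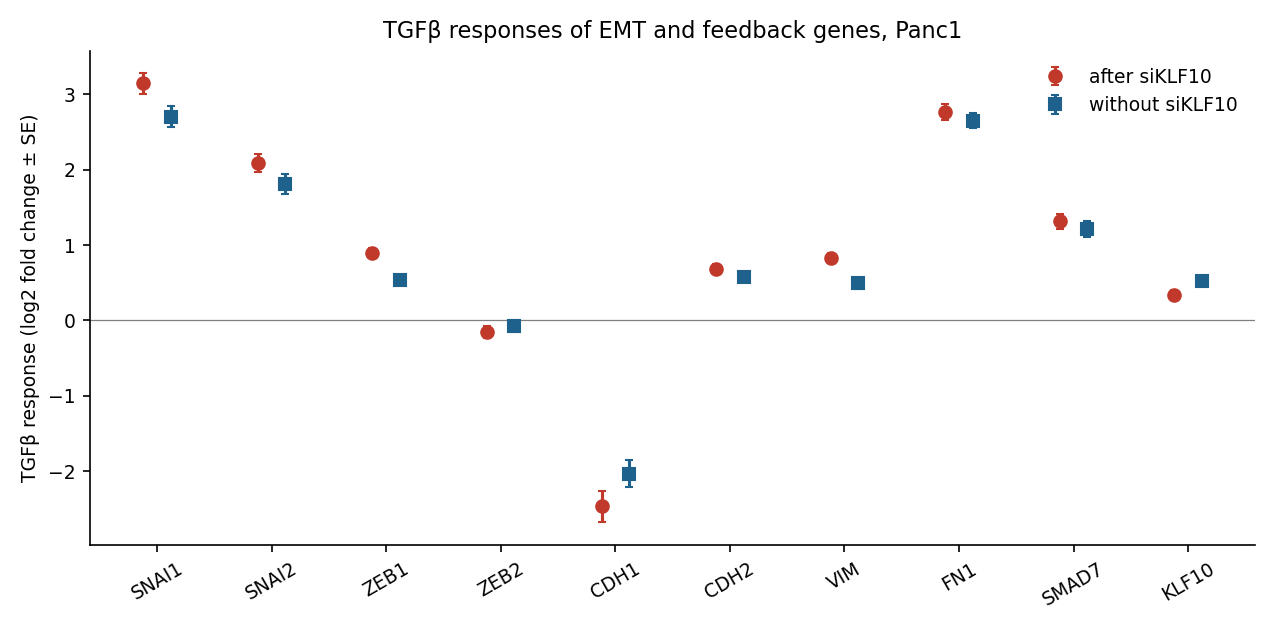
TGFβ response (vertical axis, log2 fold change ± SE of the edgeR fit) after siKLF10 (circles) and without siKLF10 (squares) for 10 EMT and feedback genes. Of these, ZEB1 has a called interaction of 0.37, and the error bars of CDH2, FN1, SMAD7 and ZEB2 overlap.

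Of 14 EMT transcription factors tested, 1 was higher and 2 were lower (21.4% in either direction, against 4.42% of all tested genes). The higher gene, ZEB1, lost its call in 2 of 18 alternatives. TWIST2, 1 of the lower genes, had an interaction of -2.1 (edgeR adjusted p = 0.0348) and lost its call in 8 of 16 alternatives. HMGA2, a chromatin protein that acts upstream of SNAI1, had 997, 1120 and 1180 CPM in siKLF10+TGFβ libraries, 706, 775 and 721 CPM in siKLF10 libraries, 716, 721 and 729 CPM in TGFβ libraries and 358, 362 and 368 CPM in siCont libraries (interaction -0.41 ± 0.09, edgeR adjusted p = 0.00707). The siKLF10 and TGFβ libraries overlapped, the combination was above both, and siCont was below. Of 32 epithelial junction and keratin genes, 3 were higher and 1 was lower (12.5%). TGFβ lowered 16 and raised 5 of the 32 after siKLF10, and lowered 25 and raised 3 without it. Of all tested genes, TGFβ changed 45% and 29%, respectively, in either direction. CLDN4, a tight-junction claudin, rose after siKLF10 and fell without it (0.82 ± 0.17, edgeR adjusted p = 0.0072), alongside KRT8, KRT18 and PPL above.

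An interaction on the log scale compares fold changes, and on the scale of CPM it can turn round. The difference of the 2 CPM responses had the opposite sign for 9 of the 584 genes, 2 of them higher and 7 lower on the log scale. LTBP2 averaged 325 ± 8.81 CPM in siKLF10+TGFβ libraries, 74.4 ± 4.06 CPM in siKLF10 libraries, 652 ± 15.4 CPM in TGFβ libraries and 221 ± 14.2 CPM in siCont libraries (SD, n = 3 each). Its fold response was larger after knockdown, while its response in CPM was smaller, with a difference of -179 CPM. HMGA2 turned the other way by 5.4 CPM, which was under the spread of its siKLF10+TGFβ libraries (SD 93.8 CPM, n = 3).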

How the data were processed

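Poly(A) RNA of Panc1 cells was sequenced with a directional kit, per the labels' protocols. The authors deposited a table of read counts (whole numbers, not normalized) per library, and the submitters' processing notes name TopHat, Bowtie2, HTSeq 0.6.0, DESeq2 and build hg19. Sources used here give no strand setting for the counting, so overlapping and antisense genes are uncertain, and genes with near-identical copies rest on uniquely aligned reads. Each table held 23368 genes and 5 summary rows, which were left out. Reads in no gene were 33.6 to 36.9% of uniquely aligned reads.

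Counts were fitted with edgeR 4.0.16 in R 4.3.3 (filterByExpr with minimum count 10 and minimum total 15, TMM scaling, robust quasi-likelihood test, 8 residual degrees of freedom) as 1 mean per group over 12 libraries. The filter kept 13218 genes. The interaction, both TGFβ responses and both siKLF10 effects were contrasts of this 1 fit, and so share libraries. The common biological coefficient of variation was 0.067. Floors of 3 counts cover counting error only. Over replicate pairs, chi-square divided by its degrees of freedom was 2.06 to 12.5, so no pair was counted as 1 library. Of 18 pairs of libraries sharing a letter, 3 had residuals correlated above 0.1, and letters were not taken as pairs. The highest were siKLF10+TGFβ A with siKLF10 A (r = 0.619) and siKLF10+TGFβ B with siKLF10 B (r = 0.34), both within the response after siKLF10. The third was siKLF10 A with siCont A (r = 0.108), and the lowest was TGFβ C with siCont C (r = -0.419). A shared batch by letter in the siKLF10 groups was thus not excluded.

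Genes were named by rule: 11 fixed genes, the 15 largest positive and 15 largest negative interactions at a mean of at least 5 CPM, 4 genes of smallest p per class, and up to 4 called members per list; 113 were eligible and fewer are printed. KRT19 and KRT5 are marker genes. 1 of the fixed genes and 1 list member are not reported here. The genes, lists and classes were chosen with earlier results of these data known. Alternatives were DESeq2 1.42.0, RLE scaling, no count filter, a mean of at least 5 CPM, the replicate block and each library left out. The fit was also run on counts simulated from its own estimates of spread with unlinked libraries, which does not check the calls made here. Of 584 interaction genes, 476 (81.5%) matched the RefSeq promoter table by symbol or synonym. A549 libraries and the authors' comparison tables were not used here.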

Additional observations from a re-analysis of the deposited data

Results flagged for a closer look

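The TGFβ effect after siKLF10 differed from that without it, by the interaction test, for 338 genes with a higher and 246 with a lower value. In 37 genes both responses were called and had opposite signs. Among the named genes of this kind the log2 interactions were 1.79 for CORO2A, 1.55 for EPAS1, 1.33 for NR4A2, 1.24 for HBEGF, 0.95 for HK2, 0.82 for CLDN4, 0.47 for LGR4, 0.44 for SCD and 0.40 for INSIG1, and these genes rose with TGFβ after siKLF10 and fell without it. NR4A2 lost its call in 6 of 17 alternatives, with 1.22 (edgeR adjusted p = 0.064) without siCont A, and INSIG1 in 4 of 18. The values were -1.31 for SAMD9L, -1.26 for PTPRU, -0.99 for CREB5 and -0.73 for STEAP3, which fell after siKLF10 and rose without it. With 3 libraries in a group, no library was tested as a single outlier.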

How the results depend on the processing

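No interaction gene changed sign under any alternative, which the choice of these genes in the same libraries largely fixes. With the replicate block, 322 genes were higher and 243 lower, and 533 of the 584 genes were called again; letters matched the closest library for 4 of 12. DESeq2 called 378 and 226, of which 532 were shared, and RLE scaling 332 and 239. Without a count filter the counts were 379 and 330, and at a mean of at least 5 CPM 305 and 249. The class called in neither arm held 5 genes by DESeq2 and 1 under RLE, under the 5 CPM filter and under the block. With each library left out, calls ranged from 196 to 570 higher and from 150 to 465 lower. Gained genes ranged from 105 to 456, lost from 32 to 100, stronger from 157 to 386, weaker from 11 to 39, opposite from 21 to 46 and neither from 0 to 8. The lowest counts have fewer libraries, while siKLF10+TGFβ A left out gave the highest. Leaving out siKLF10+TGFβ A and siCont A together, an alternative chosen after seeing the data, gave 396 higher and 385 lower, with 327 gained. The TGFβ responses stayed within 1.5 times of 5943 and 3839 throughout. Genes near 0 in a group, such as TNS1, COL4A1 and TWIST2, are limited by depth.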

Other observations

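Some values outside the account above may merit a look. KLF2, a relative of KLF10, had the only called interaction among 17 KLF and SP genes tested. That share of 5.88% was near the 4.42% of all tested genes. KLF2 had 6.28 to 6.72 CPM in siKLF10+TGFβ libraries, 3.32 to 4.11 CPM in siKLF10 libraries, 3.93 to 4.63 CPM in TGFβ libraries and 4.39 to 5.97 CPM in siCont libraries (interaction 1.03 ± 0.23, edgeR adjusted p = 0.00923). ITGB5, an integrin chain that binds vitronectin, had 75.9 to 78.2 CPM in siKLF10+TGFβ libraries, 47.7 to 49.6 CPM in siKLF10 libraries, 458 to 483 CPM in TGFβ libraries and 200 to 227 CPM in siCont libraries. It was far lower in both siKLF10 groups, by 2.60 on the log2 scale with TGFβ and 2.15 without, and its interaction was -0.45 ± 0.09 (edgeR adjusted p = 0.00289). ARG2, the mitochondrial arginase, had 9.95 to 10.9 CPM in siKLF10+TGFβ libraries, 6.77 to 6.97 CPM in siKLF10 libraries, 0.952 to 1.76 CPM in TGFβ libraries and 1.18 to 2.73 CPM in siCont libraries (1.32 ± 0.32, edgeR adjusted p = 0.0197), and lost its call without TGFβ A (1.26, adjusted p = 0.0635), TGFβ C (1.13, adjusted p = 0.0825), siCont A (1.09, adjusted p = 0.0982) or siCont C (1.23, adjusted p = 0.0593), and without siKLF10+TGFβ A and siCont A together (1.13, adjusted p = 0.0576). PLK2, a kinase and p53 target, and RRM2 were also higher in both siKLF10 groups and fell with TGFβ only without siKLF10, with interactions of 0.55 ± 0.10 and 0.31 ± 0.08 (edgeR adjusted p = 0.00182 and 0.0304). RRM2 lost its call in 8 of 18 alternatives, with adjusted p up to 0.104.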
